A study of Mus musculus with 4 samples.

Results

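Cholesterol synthesis and its control by SREBP2 were described through 27 genes in the livers of mice with diet-induced steatohepatitis. The genes were chosen by symbol, with earlier results of these data known. They comprised 18 enzymes of the route, 6 genes of the SREBP2 control machinery and 3 genes of sterol transfer or uptake, out of 24346 genes listed in each library. The remaining enzymes of the route were not analysed here. Liver RNA was sequenced from male C57BL/6 mice that were 8 weeks old at the start and were fed for 3 weeks. Both groups received the NASH diet, which is rich in fat, cholesterol and sucrose and holds bile salt. The diet of the 7KC group (n = 2) also held 7-ketocholesterol (7KC), a cholesterol molecule oxidised at its seventh carbon, and that of the control group (n = 2) did not. All livers were therefore exposed to excess dietary cholesterol, and no library from a standard diet was analysed here. The sources used here do not say whether a library came from 1 animal or from pooled animals, so p-values measure only the spread between these samples.

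Cells build cholesterol from acetyl-CoA through mevalonate, isoprenoid diphosphates, squalene and a series of sterols. SREBP2, a transcription factor held in the endoplasmic reticulum membrane, controls the enzymes together. When sterols are scarce, the escort protein SCAP carries SREBP2 to the Golgi, where the site-1 and site-2 proteases release its active part; when sterols are plentiful, INSIG proteins hold SCAP back. Some oxysterols are known to bind INSIG proteins. Whether 7KC did so in these livers was not tested. After the feeding period, the study found no significant difference between the groups in the liver concentration of the added oxysterol. The liver is a major site of cholesterol synthesis. The question of the comparison was how the genes of this route stood when 7KC was added to a diet already rich in cholesterol.

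Promoters of SREBP2 targets often pair a sterol regulatory element with binding sites of NF-Y, which reads CCAAT, and of Sp1, which reads GGGCGG. RefSeq promoter windows on build GRCm38.p6 matched 23 of the 27 genes by symbol, and the 250 bases before each start were searched on both strands for the letters of both sites and for the sterol regulatory element core TCACNCCAC. The windows shown are those of Insig1, Cyp51 and Mvd, which had the largest ratios between the control libraries among genes with a window, and of Hmgcs1, in whose window the sterol regulatory element core was found. Each is written 5′ to 3′ on the strand of its gene, with the motifs on either strand in capitals. For Insig1 and Cyp51 the last 49 bases, which lie inside another annotated transcript of the gene, are left out, and with them the CCAAT of Cyp51.
Insig1, chr5:28071162-28071362, plus strand: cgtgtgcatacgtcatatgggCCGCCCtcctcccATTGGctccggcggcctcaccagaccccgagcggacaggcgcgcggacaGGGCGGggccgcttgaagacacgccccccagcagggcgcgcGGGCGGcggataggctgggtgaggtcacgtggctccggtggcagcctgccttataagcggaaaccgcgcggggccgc
Cyp51, chr5:4104747-4104947, minus strand: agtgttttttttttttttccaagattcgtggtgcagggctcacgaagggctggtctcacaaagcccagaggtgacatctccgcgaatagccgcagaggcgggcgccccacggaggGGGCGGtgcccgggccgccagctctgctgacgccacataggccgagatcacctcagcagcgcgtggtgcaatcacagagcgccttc
Mvd, chr8:122443423-122443672, minus strand: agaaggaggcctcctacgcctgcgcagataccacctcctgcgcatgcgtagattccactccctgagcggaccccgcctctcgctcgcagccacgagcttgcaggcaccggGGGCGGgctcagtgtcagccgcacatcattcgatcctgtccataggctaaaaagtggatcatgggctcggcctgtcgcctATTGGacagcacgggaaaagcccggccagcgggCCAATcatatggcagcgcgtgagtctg
Hmgcs1, chr13:119690101-119690350, plus strand: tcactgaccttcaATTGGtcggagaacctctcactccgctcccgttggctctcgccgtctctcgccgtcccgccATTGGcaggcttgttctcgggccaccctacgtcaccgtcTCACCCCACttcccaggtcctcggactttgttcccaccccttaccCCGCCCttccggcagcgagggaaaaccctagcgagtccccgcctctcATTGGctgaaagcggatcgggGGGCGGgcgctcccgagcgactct
CCAAT was found before 19 of the 23 genes (82.6%), against 37.5% of the 27025 genes in the promoter collection. The genes without it were Acat2, Scap, Mbtps1 and Mbtps2. GGGCGG was also found before 19 of 23 genes (82.6%), against 35.4% of all genes. The sterol regulatory element core was found before 1 of 23 genes (4.35%), Hmgcs1, against 1.22% of all genes. No motif overlapped another in the windows shown. The promoter collection was not limited to genes expressed in liver, and no such subset was compared. These matches describe letters in the windows and are not measured binding sites.

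As a group the genes lay a little lower in the 7KC group, and none passed the test. Expression was measured as FPKM, which scales the reads of a gene by its exon length and by the size of its library. As deposited, the libraries were already on a common scale by the median of ratios. Log2 changes, 7KC against control, were computed from FPKM + 0.5, a scale that understates the change of low genes. Of the 27 genes, 26 had a mean of at least 0.5 FPKM and were tested with limma over all 12299 genes that met this minimum. With limma, 0 of 26 had an adjusted p under 0.05 in either direction, against 0.48% of all genes called higher and 0.0244% called lower. At an unadjusted p under 0.05, 1 of 26 genes was higher (Mvd), against 12% of all genes, and 3 were lower (Acat2, Fdps and Sc5d), against 5.81% of all genes, with no other tool run. The log2 change was below 0 for 21 genes and above 0 for 5, against 6625 and 5674 of all 12299 genes. Its median was -0.18, against -0.03 for all genes tested. Both 7KC libraries lay below both control libraries for 11 of 26 genes, against 27.4% of all genes. They lay above both for 3 genes, Mvd, Srebf2 and Mbtps2, against 25.1% of all genes. For the other 12 genes the groups overlapped. An exact test of a single gene cannot pass with 2 libraries against 2, since its smallest 2-sided p is 0.333.

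**Figure D1:**
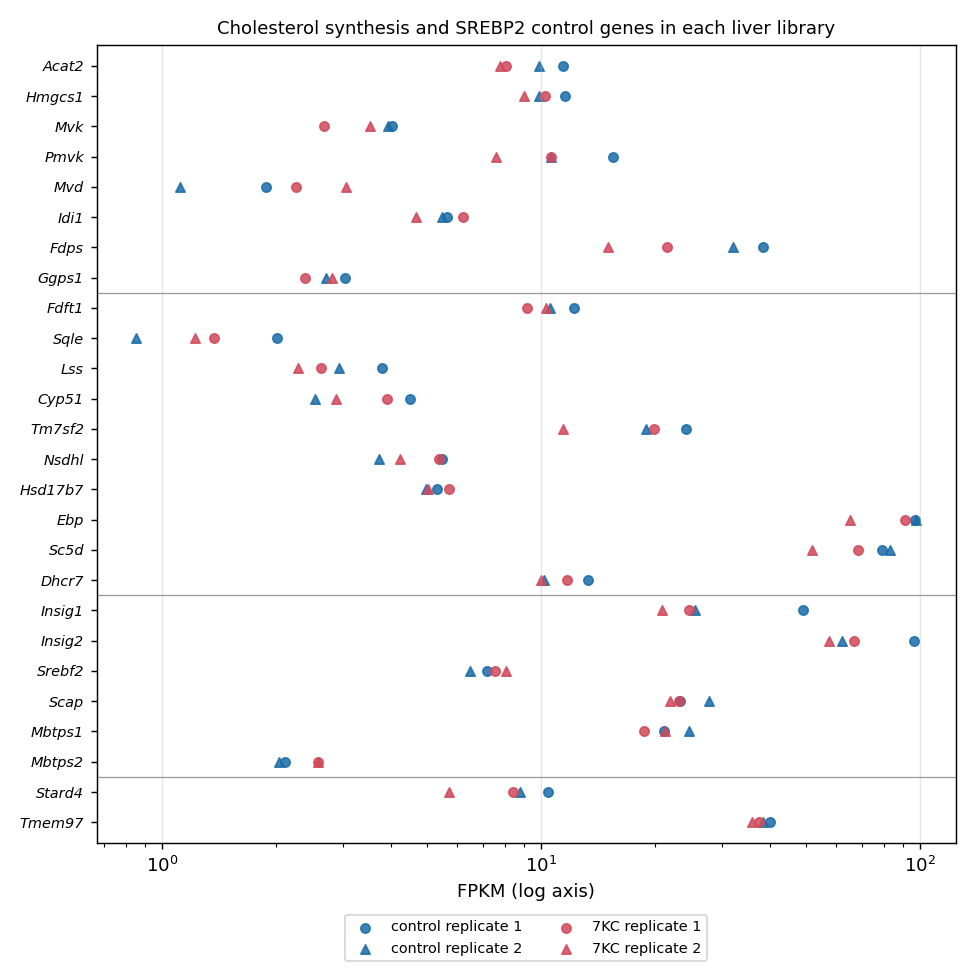
FPKM of each of the 26 tested genes in each library, on a log axis, with the enzymes in pathway order followed by control and transfer genes. Blue points are control and red points 7KC libraries, with circles for replicate 1 and triangles for replicate 2. Levels run from 0.850 FPKM (Sqle, control replicate 2) to 97.6 FPKM (Ebp, control replicate 2).

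The enzymes that lead from acetyl-CoA to the isoprenoids had the widest range of changes. Acat2, the cytosolic thiolase that joins acetyl-CoA units (chr17:12942890-12960747, minus strand, build mm10), had 11.4 and 9.88 FPKM in control replicates 1 and 2 and 8.05 and 7.76 FPKM in 7KC replicates 1 and 2. Both 7KC libraries were the lower ones, and the libraries of each group lay close together. The log2 change was -0.40 (SE 0.12, limma adjusted p = 0.200). Acat2 has a close relative, Acat3, whose reads could have been exchanged with it. Acat3 had 94.6 and 65.6 FPKM in the control group and 72.9 and 67.0 FPKM in the 7KC group, and its groups overlapped.

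Hmgcs1, the synthase that makes HMG-CoA, had 11.5 and 9.84 FPKM in the control group and 10.2 and 8.997 FPKM in the 7KC group, and the groups overlapped. The groups differed by -0.14 on the log2 scale (SE 0.14, limma adjusted p = 0.623). Mvk, mevalonate kinase, had 4.03 and 3.94 FPKM in the control group and 2.67 and 3.53 FPKM in the 7KC group. For Mvk the control libraries were nearly equal and both 7KC libraries lay below them, with a log2 difference between the groups of -0.33 (limma adjusted p = 0.361, SE 0.16) that stood at -0.16 with 7KC replicate 1 left out and at -0.50 with 7KC replicate 2 left out. Pmvk, which adds the next phosphate, had 15.5 and 10.6 FPKM in the control group and 10.6 and 7.59 FPKM in the 7KC group. Control replicate 2 and 7KC replicate 1 of Pmvk were nearly equal, while control replicate 1 stood above them and 7KC replicate 2 below. The log2 change of Pmvk was -0.49 (limma adjusted p = 0.356, SE 0.24), against -0.23 when control replicate 1 was left out, -0.75 when control replicate 2 was and -0.26 when 7KC replicate 2 was.

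Mvd, the decarboxylase that makes isopentenyl diphosphate (chr8:122433601-122443422, minus strand), was the only enzyme with both 7KC libraries above the control libraries. It had 1.87 and 1.11 FPKM in the control group and 2.25 and 3.04 FPKM in the 7KC group, and control replicate 1 came close to 7KC replicate 1. The means were 1.49 ± 0.536 FPKM (SD, n = 2) and 2.65 ± 0.564 FPKM (SD, n = 2), a 1.77-fold difference. The log2 change was 0.67 (95% interval 0.04 to 1.31, limma adjusted p = 0.258). Leaving out control replicate 2 gave 0.40 and leaving out control replicate 1 gave 0.95. These levels rested on few reads, about 25 in control replicate 2, where the counting error by itself is 20% of the value.

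Fdps, the synthase of farnesyl diphosphate (chr3:89093588-89101959, minus strand), had the lowest log2 change of the 26 genes. It had 38.3 and 32.0 FPKM in control replicates 1 and 2 and 21.5 and 15.0 FPKM in 7KC replicates 1 and 2. The gap between the groups was wider than the gap within either. The means were 35.2 ± 4.50 FPKM (SD, n = 2) in the control group and 18.3 ± 4.59 FPKM (SD, n = 2) in the 7KC group, so the control mean was 1.93-fold higher. The log2 change was -0.94 (SE 0.20, 95% interval -1.45 to -0.43). It did not pass the adjustment over all genes (limma adjusted p = 0.107). Its exons share 1124 bases with another annotated coding gene on the same strand, Gm43738, so reads could have been assigned to either. Idi1, the isomerase before this step, had 5.63 and 5.47 FPKM in the control group and 6.22 and 4.66 FPKM in the 7KC group, so that the 7KC libraries lay on either side of the control libraries. Ggps1, which makes geranylgeranyl diphosphate for protein prenylation, had 3.03 and 2.70 FPKM in the control group and 2.38 and 2.80 FPKM in the 7KC group, and its groups overlapped. Neighbouring enzymes of the isoprenoid stretch thus had changes of -0.04 (Idi1, limma adjusted p = 0.923), -0.94 (Fdps) and -0.12 (Ggps1, limma adjusted p = 0.703) on the log2 scale.

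**Figure D2:**
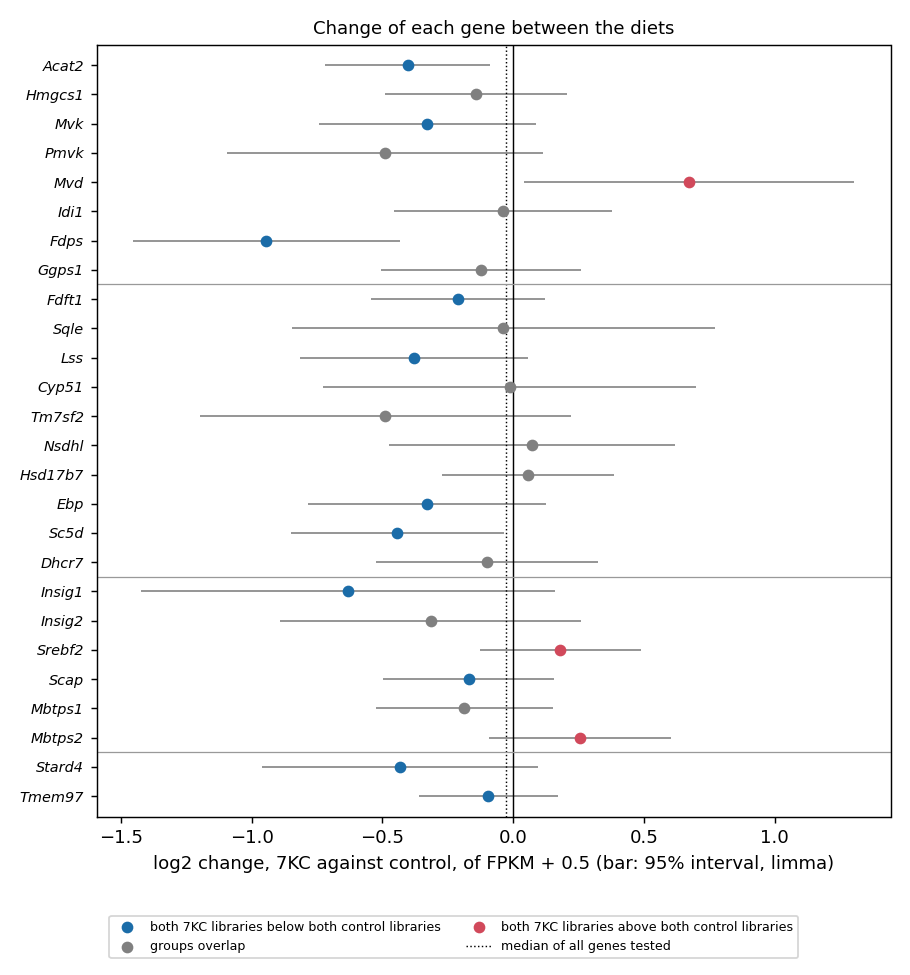
Log2 change of each gene, 7KC against control, of FPKM + 0.5, with its 95% interval from limma (bars) and the median of all genes tested (dotted line). Blue marks the 11 genes whose 7KC libraries both lie below the control libraries, red the 3 whose 7KC libraries both lie above, and grey the 12 whose groups overlap; Fdps lies at -0.94 and Mvd at 0.67.

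Of the 10 enzymes from squalene to cholesterol, 4 had both 7KC libraries below the control libraries, against 27.4% of all genes. None had both above, against 25.1% of all genes. Fdft1, squalene synthase, had 12.2 and 10.6 FPKM in the control group and 9.17 and 10.3 FPKM in the 7KC group. Its groups were separated by a narrow gap, and the log2 change was -0.21 (SE 0.13, limma adjusted p = 0.447), or -0.11 with control replicate 1 and -0.13 with 7KC replicate 1 left out. Exons of Fdft1 and Ctsb overlap by 774 bases on opposite strands, and Ctsb, a lysosomal protease, had 202 and 173 FPKM in the control group and 221 and 295 FPKM in the 7KC group. The counting was not stated to use the strand, so reads of the shared stretch could have gone to either gene.

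Sqle, squalene epoxidase, a rate-controlling step of the sterol stretch (chr15:59315077-59331192, plus strand), differed more between the control libraries than between the groups. It had 2.01 and 0.850 FPKM in control replicates 1 and 2 and 1.37 and 1.22 FPKM in 7KC replicates 1 and 2. The control libraries were both the highest and the lowest of the 4. Control replicate 1 was 2.36-fold above control replicate 2, at about 147 and 50 reads. The log2 change between the groups was -0.04 (95% interval -0.85 to 0.77, limma adjusted p = 0.962). It turned to 0.41 when control replicate 1 was left out and to -0.48 when control replicate 2 was.

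Cyp51, which removes the 14-alpha methyl group of lanosterol, was arranged in the same way, with 4.49 and 2.53 FPKM in the control group and 3.92 and 2.87 FPKM in the 7KC group. Its log2 change was -0.01 (95% interval -0.73 to 0.70, limma adjusted p = 0.984), against 0.35 when control replicate 1 was left out and -0.37 when control replicate 2 was. Nsdhl, a dehydrogenase in removal of the methyl groups at carbon 4, had 5.46 and 3.73 FPKM in the control group and 5.38 and 4.23 FPKM in the 7KC group, with the 7KC libraries again inside the control range. Its log2 change was 0.07 with an SE of 0.22 (limma adjusted p = 0.891). Hsd17b7, the ketoreductase of that stage, had 5.30 and 4.96 FPKM in the control group and 5.71 and 5.01 FPKM in the 7KC group. Its groups overlapped, at a log2 change of 0.06 with an SE of 0.13 (limma adjusted p = 0.854).

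Lss, which folds squalene epoxide into lanosterol, had 3.80 and 2.92 FPKM in the control group and 2.63 and 2.28 FPKM in the 7KC group. Both 7KC libraries of Lss were lower, at a log2 change of -0.38 with an SE of 0.17 (limma adjusted p = 0.330), which was -0.22 with control replicate 1 left out. Tm7sf2, a sterol reductase at carbon 14, had 24.1 and 18.9 FPKM in the control group and 19.9 and 11.4 FPKM in the 7KC group. Its groups overlapped and 7KC replicate 2 stood far below the rest, at a log2 change of -0.49 with an SE of 0.28 (limma adjusted p = 0.415) that was -0.10 without 7KC replicate 2, -0.87 without 7KC replicate 1 and -0.32 without control replicate 1. Tm7sf2 shares 532 exonic bases with Vps51 on the same strand, and Vps51 had 8.02 to 8.19 FPKM in the control group and 8.69 to 9.22 FPKM in the 7KC group.

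The most abundant enzymes of the route were Ebp and Sc5d. Ebp, the sterol isomerase, had 96.6 and 97.6 FPKM in the control group and 91.0 and 65.4 FPKM in the 7KC group. The control libraries of Ebp were nearly equal, 7KC replicate 1 was close to them, and 7KC replicate 2 was lower. The log2 change of -0.33 (SE 0.18, limma adjusted p = 0.392) was -0.09 without 7KC replicate 2 and -0.57 without 7KC replicate 1. Sc5d, the desaturase that follows (chr9:42251595-42264256, minus strand), had 79.0 and 83.1 FPKM in the control group and 68.3 and 51.8 FPKM in the 7KC group. Both 7KC libraries of Sc5d lay below both control libraries, with 7KC replicate 2 the lower of the pair. Its means were 81.1 ± 2.92 FPKM (SD, n = 2) and 60.0 ± 11.6 FPKM (SD, n = 2), and the log2 change was -0.44 (SE 0.16) at a limma adjusted p of 0.251. Without 7KC replicate 2 the change was -0.25. Dhcr7, which makes cholesterol from 7-dehydrocholesterol, had 13.3 and 10.2 FPKM in the control group and 11.7 and 10.002 FPKM in the 7KC group, and its groups overlapped (log2 change -0.10, SE 0.17, limma adjusted p = 0.791).

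Among the control genes, the INSIG genes had lower means in the 7KC group and the SREBP2 gene a higher one, with no test passed. Insig1, itself a target of SREBP2 (chr5:28071363-28078662, plus strand), had 48.9 and 25.4 FPKM in control replicates 1 and 2 and 24.6 and 20.8 FPKM in 7KC replicates 1 and 2. Control replicate 1 stood alone, and control replicate 2 was close to 7KC replicate 1. The means were 37.2 ± 16.6 FPKM (SD, n = 2) and 22.7 ± 2.69 FPKM (SD, n = 2). The log2 change of -0.63 (SE 0.31, limma adjusted p = 0.360) stood at -0.17 with control replicate 1 left out and at -1.10 with control replicate 2 left out. Insig2, the second INSIG gene, whose level in liver is not set by SREBP2 in the way of Insig1, had 96.0 and 62.2 FPKM in the control group and 66.8 and 57.5 FPKM in the 7KC group. Its control replicate 1 again stood above the other 3 libraries, the groups overlapped, and the log2 change of -0.32 (SE 0.23, limma adjusted p = 0.507) became -0.01 with control replicate 1 left out, -0.63 with control replicate 2 left out and -0.21 with 7KC replicate 2 left out.

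Srebf2, the gene of SREBP2 (chr15:82147181-82205379, plus strand), had 7.19 and 6.46 FPKM in the control group and 7.55 and 8.05 FPKM in the 7KC group. Both 7KC libraries were above the control libraries by a narrow margin, and the log2 change was 0.18 (SE 0.12, limma adjusted p = 0.479), or 0.11 with control replicate 2 left out. Scap, the sterol-sensing escort of SREBP2, had 23.2 and 27.6 FPKM in the control group and 23.0 and 21.8 FPKM in the 7KC group. Control replicate 1 of Scap was nearly level with 7KC replicate 1, and the log2 change was -0.17 (SE 0.13, limma adjusted p = 0.535), or -0.29 with control replicate 1 and -0.05 with control replicate 2 left out.

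The proteases that cut SREBP2 stood in different directions. Mbtps1, the site-1 protease, had 21.05 and 24.5 FPKM in the control group and 18.6 and 21.2 FPKM in the 7KC group, and the groups overlapped (log2 change -0.19, SE 0.13, limma adjusted p = 0.505). Mbtps2, the site-2 protease, had 2.11 and 2.04 FPKM in the control group and 2.57 FPKM in each 7KC library. The libraries of each group were nearly equal for Mbtps2, and the log2 change was 0.26 (SE 0.14, limma adjusted p = 0.387). Mbtps2 shares 2867 exonic bases with Yy2 on the same strand, so reads could have been assigned to either gene.

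Of the transfer and uptake genes, Stard4, which carries cholesterol between membranes, had 10.4 and 8.76 FPKM in the control group and 8.44 and 5.71 FPKM in the 7KC group. Control replicate 2 of Stard4 was close to 7KC replicate 1, and the log2 change of -0.43 (SE 0.21, limma adjusted p = 0.350) was -0.17 without 7KC replicate 2 and -0.70 without 7KC replicate 1. Tmem97, an endoplasmic reticulum sterol-binding protein, had 40.2 and 38.3 FPKM in the control group and 37.4 and 36.1 FPKM in the 7KC group, a small difference without overlap (log2 change -0.10, SE 0.10, limma adjusted p = 0.671) that was -0.06 with control replicate 1 left out. Npc1l1, the cholesterol uptake transporter of the intestine, was listed at 0 in all 4 libraries and was not tested. For Npc1l1, 3 reads would correspond to 0.0411 to 0.0517 FPKM, for counting error only.

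Replicates of the same diet also stood apart for several of these genes, mostly in 1 direction. Control replicate 1 was at least 1.2-fold above control replicate 2 for 10 of 26 genes, against 20.2% of all genes, and the reverse held for 0 of 26, against 16.1% of all genes. The highest ratios were those of Sqle (2.36), Insig1 (1.93), Cyp51 (1.77), Mvd (1.68) and Insig2 (1.54). In the 7KC group, replicate 1 was at least 1.2-fold above replicate 2 for 9 genes, against 16.3% of all genes, with Tm7sf2 (1.74) and Stard4 (1.48) highest. The reverse held for 2 genes, Mvk and Mvd, against 20% of all genes. Control replicate 1 was the highest of the 4 libraries for 17 of 26 genes, against 26.1% of all genes, and 7KC replicate 2 the lowest for 15, against 34.1% of all genes. The median ratio of replicate 1 to replicate 2 was 1.16 in the control group and 1.15 in the 7KC group, against 1.02 and 1.01 for all genes. Other lists described below had part of this pattern. 7KC replicate 2 was lowest for 12 of 14 hepatocyte markers, 8 of 10 sterol sensing genes and 8 of 11 fatty acid synthesis genes. For isoprenoid genes it was 4 of 10 and for sterol transport genes 4 of 12. With libraries scaled to the hepatocyte markers, 7KC replicate 1 was at least 1.2-fold higher for 3 of 26 genes and 7KC replicate 2 for 6. The control counts on that scale were 11 and 0. With 1 library on each side these ratios have no test. The library medians of log2(FPKM + 0.5) over the 26 genes were 3.58 and 3.37 in the control group and 3.22 and 3.07 in the 7KC group.

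**Figure D3:**
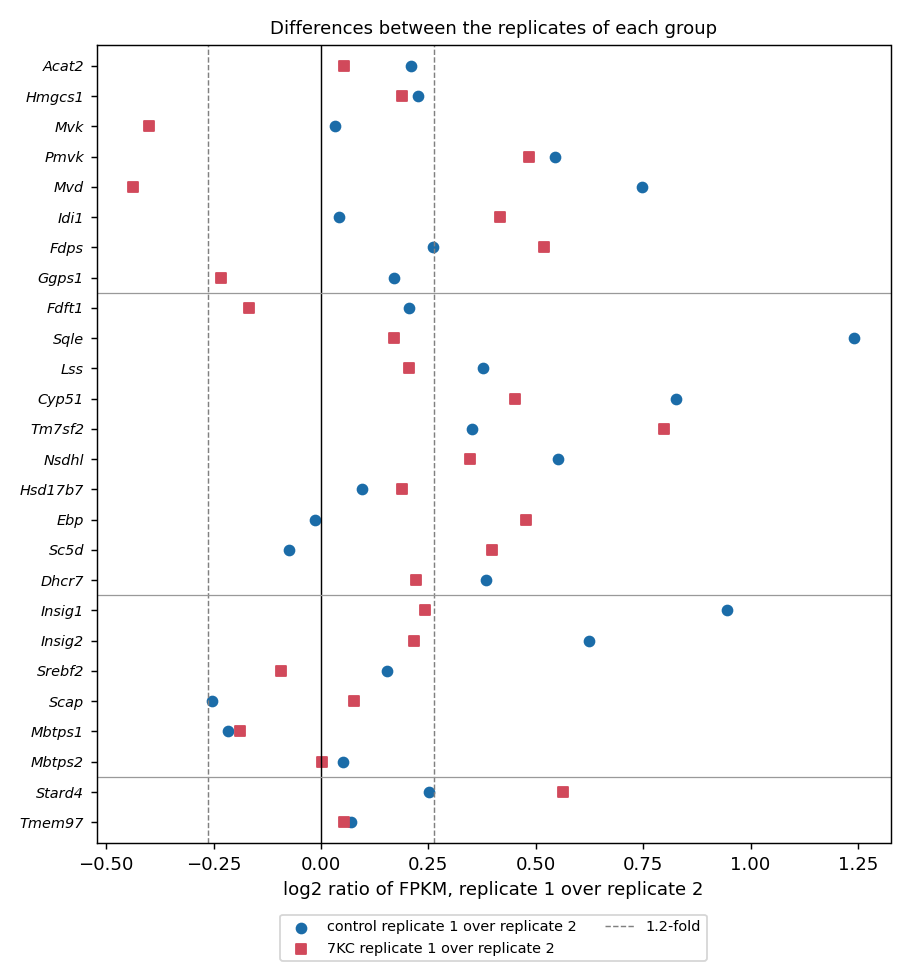
Log2 ratio of FPKM, replicate 1 over replicate 2, for each gene in the control group (blue circles) and in the 7KC group (red squares), with dashed lines at a 1.2-fold ratio. Most points lie to the right of 0: control replicate 1 is above control replicate 2 for 22 of 26 genes and 7KC replicate 1 above 7KC replicate 2 for 20 of 26. For all 12299 genes tested these counts are 6629 and 6429.

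Summed FPKM gave the same order of libraries with most of the weight on abundant genes. The 18 enzymes summed to 338 and 311 FPKM in the control group and 283 and 218 FPKM in the 7KC group, so the 7KC sum was 77.2% of the control sum. It was 70.3% for the enzymes up to the isoprenoids, 79.6% for those from squalene onward and 79.4% for the control genes. For all genes tested the 7KC sum was 86.7% of the control sum.

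Other gene lists around the route were written from general knowledge. For comparison, limma called 0.48% of all genes higher and 0.0244% lower at an adjusted p under 0.05. Of all 12299 genes tested, 6625 had a log2 change below 0 and 5674 above 0. The enzymes that use isoprenoids (10 genes) had a median log2 change of -0.20, with 8 below 0 and 0 called by limma (1 lower at an unadjusted p under 0.05, against 5.81% of all genes). The largest change among them was that of Rabggtb, a subunit of the enzyme that prenylates Rab proteins, at -0.38 (limma adjusted p = 0.216). The genes of sterol sensing and enzyme degradation in the endoplasmic reticulum (10 genes) were all below 0, at a median of -0.18, with 0 called by limma. At an unadjusted limma p under 0.05, 0 were higher or lower, against 12% and 5.81% of all genes. Syvn1, a ubiquitin ligase of that membrane, had 64.5 and 36.2 FPKM in the control group and 37.6 and 22.4 FPKM in the 7KC group, a log2 change of -0.73 (limma adjusted p = 0.356). Control replicate 1 was its highest library and 7KC replicate 2 its lowest, and the groups overlapped.

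The SREBP1 and fatty acid synthesis genes (11 genes) had a lower median, -0.50, with 10 below 0. At an unadjusted limma p under 0.05, 5 of them were lower, against 5.81% of all genes. Thrsp, a lipogenic gene of the liver, fell, from 383 and 369 FPKM in the control group to 154 and 129 FPKM in the 7KC group (log2 change -1.41, limma adjusted p = 0.0336), and was the only gene of that list to pass. Its log2 change kept its sign under every alternative, but the call was lost without control replicate 2 (limma adjusted p = 0.101), without 7KC replicate 1 (0.152) or without 7KC replicate 2 (0.215), with the replicate block (0.151), without a filter on low values (0.119) and without a trend in the prior variance (0.0521). Between the control replicates the fatty acid genes did not all follow the sterol genes. Control replicate 1 was at least 1.2-fold higher for 4 of 11, against 20.2% of all genes. Control replicate 2 was the higher for 4 of 11, Srebf1, Acaca, Fasn and Elovl6, against 16.1% of all genes. Between the 7KC replicates the direction was that of the sterol genes. 7KC replicate 1 was at least 1.2-fold higher for 4 of 11, against 16.3% of all genes. 7KC replicate 2 was the higher for 0 of 11, against 20% of all genes. Whether the lists differ from the sterol genes was not tested. Genes of intracellular sterol transport and esterification (12 genes) had a median of 0.03, with 7 above 0 and 0 called by limma (3 higher and 2 lower at an unadjusted p under 0.05, against 12% and 5.81% of all genes). Soat1, a sterol esterifying enzyme found in macrophages, had 2.58 and 2.15 FPKM in the control group and 4.23 and 7.23 FPKM in the 7KC group (log2 change 1.08, limma adjusted p = 0.130).

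**Figure D4:**
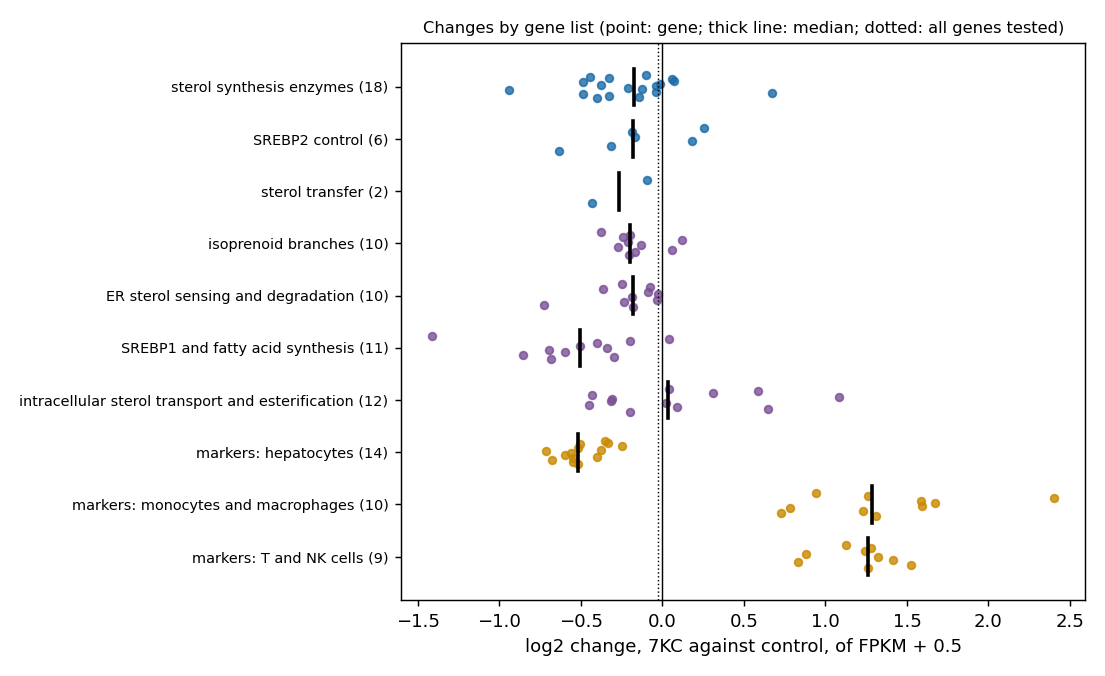
Log2 change of each tested gene, 7KC against control, of FPKM + 0.5, by gene list, with the number of genes in brackets, thick lines at the medians, a solid line at 0 and a dotted line at the median of all genes. Blue marks the sterol synthesis, SREBP2 control and sterol transfer lists. The median of the sterol synthesis enzymes, -0.18, lies between those of the hepatocyte markers, -0.52, and the macrophage markers, 1.28. Single enzymes overlap the hepatocyte markers, and Fdps at -0.94 lies below the lowest of them, at -0.71.

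Markers of liver cell types had different levels in the groups, although Il2rb alone among them passed the test. In whole liver, fewer cells of a type and less RNA per cell cannot be told apart. The 14 hepatocyte markers, led by Alb and Apoa1, were all below 0, with a median of -0.52. Of the 14, 13 were lower without overlap, against 27.4% of all genes. Limma called 0 of the 14 markers (3 lower at an unadjusted p under 0.05, against 5.81% of all genes). Their summed level was 79439 to 88018 FPKM in the control group and 50006 to 64576 FPKM in the 7KC group, lowest in 7KC replicate 2. The 10 monocyte and macrophage markers, led by Lyz2, were all above 0, with a median of 1.28. Of the 10, 9 were higher without overlap, against 25.1% of all genes. Limma called 0 of the 10 markers (9 higher at an unadjusted p under 0.05, against 12% of all genes). Their sum was 425 to 660 FPKM in the control group and 1211 to 1903 FPKM in the 7KC group. Of 10 T and NK cell markers 9 were tested, at a median of 1.26, with sums of 15.2 to 20.9 and 45.6 to 53.8 FPKM. All 9 were higher without overlap, against 25.1% of all genes. All 9 were also higher at an unadjusted limma p under 0.05, against 12% of all genes. Il2rb was called (limma adjusted p = 0.0423), against 0.48% of all genes called higher. The call of Il2rb was lost without control replicate 2 (limma adjusted p = 0.112), 7KC replicate 1 (0.159) or 7KC replicate 2 (0.294), with the replicate block (0.184), without a filter on low values (0.134), with quantile normalization (0.0596) and without a trend in the prior variance (0.0594). Median changes were 0.39 for B cell (3 genes tested), 0.66 for neutrophil (3), -0.06 for stellate cell (6), 0.00 for endothelial cell (6), 0.19 for cholangiocyte (4) and -0.49 for erythroid markers (3). Sis, an enterocyte marker, was listed at 0 in all libraries. The only enterocyte marker tested was Fabp2, which liver also expresses. The part of these markers' cell types in the sterol gene values was not tested.

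The direction of the sterol genes depended on the scale of the libraries. The deposited values were already on a common scale by the median of ratios, with factors of 1.0006 to 1.0027. When every library was brought to the same summed FPKM, the median of all genes shifted by 0.19 and that of the 26 genes became 0.02, with 14 above 0 and 12 below. When each was scaled to its hepatocyte markers, all genes shifted by 0.44 and the 26 genes had a median of 0.29. Of the 26, 22 lay above 0 and 4 below, and Mvd passed the threshold (log2 change 1.06, limma adjusted p = 0.0413). On that scale limma called 2441 of all genes tested, against 62 as deposited, so the call does not set Mvd apart. Relative to the median of all genes, the 26 genes lay at -0.15 as deposited, at -0.14 with equal sums and at -0.12 on the hepatocyte scale. Leaving out control replicate 1 made this distance -0.0652 and leaving out control replicate 2 made it -0.295. It was -0.183 when 7KC replicate 1 was left out and -0.0997 when 7KC replicate 2 was. Of the 26 genes, 7 kept 1 direction under all 14 alternatives run. Fdps, Insig1, Pmvk and Tm7sf2 were lower throughout, and Mvd, Srebf2 and Mbtps2 were higher. On the hepatocyte scale Pmvk stood at only -0.02 and Tm7sf2 at only -0.01. The filter, prior variance and replicate block alternatives leave the log2 change itself unchanged, so they could not alter a direction. For Fdps the log2 change ranged from -1.20 to -0.46 and the limma adjusted p from 0.0758 to 0.421.

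**Figure D5:**
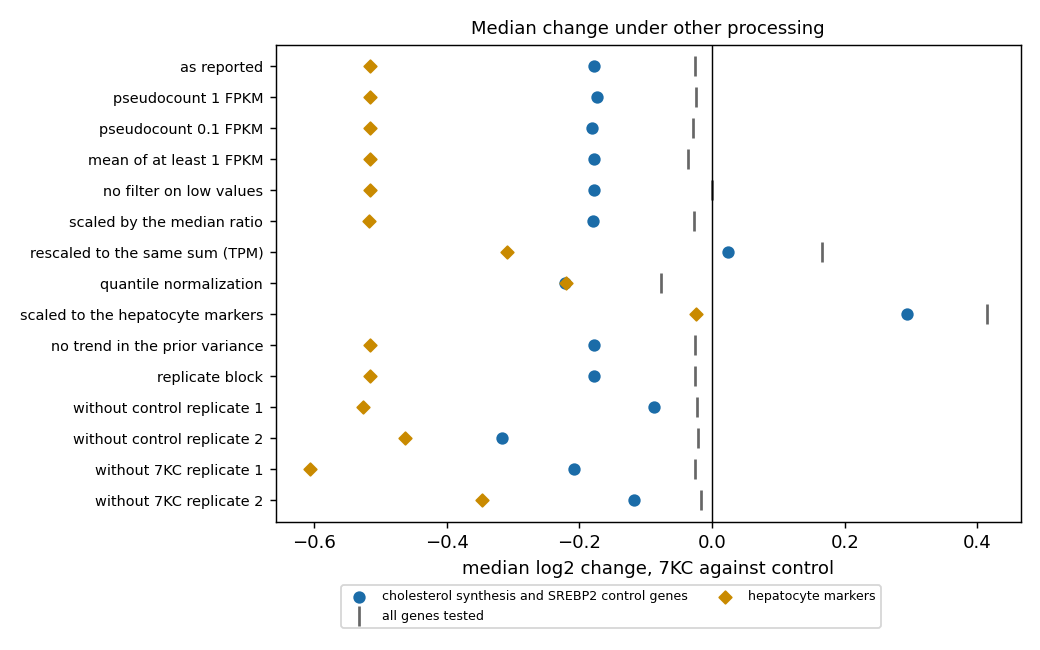
Median log2 change, 7KC against control, of the 26 genes (blue circles), all genes tested (grey bars) and hepatocyte markers (orange diamonds) under each processing alternative. The 26 genes lie to the left of all genes in every row, at a median from -0.32 (without control replicate 2) to 0.29 (hepatocyte scale).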

How the data were processed

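FPKM values were deposited by the authors, 1 per gene symbol and library. Libraries were made with a stranded mRNA kit and sequenced as 75-base single-end reads. Per the submitters' processing notes, TopHat2 2.1.1, Bowtie2 2.2.8, SAMtools 0.1.18, Cuffdiff 2.2.1 and build mm10 were used; the study's methods name other versions of some tools. The annotation and the settings for strand and multi-mapped reads are not given in the sources used here.

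Groups were taken from the labels. Values were compared as log2(FPKM + 0.5) with limma 3.58.1 in R 4.3.3 (lmFit, eBayes with trend, group only) over 12299 genes whose mean reached 0.5 FPKM, with Benjamini-Hochberg adjustment and a threshold of 0.05. Degrees of freedom were 2 for the residuals and 3.27 for the prior. No count test was used. The fit was tested on simulated data. Depth, estimated from the steps of low values with an assumed fragment length of 200 bases, was 13600000 to 17100000 reads. Under this estimate 69.4% to 71.8% of low values came out within 0.1 of a whole read, and 0.5 FPKM was worth 9.95 to 12.5 reads at the median length. Read numbers in the text use the same estimate and the longest transcript of GENCODE M21, whose build GRCm38 is the one called mm10, and are approximate; intervals and floors cover counting error only.

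All 27 genes were named. From each related list, genes past the threshold and the largest change were named, and from each marker list genes at 0 in all libraries and up to 2 of the most abundant. Il2rb, the replicate-apart fatty acid genes, Fabp2 and genes overlapping or close in sequence were named after their values were seen. Trac and Ly6g were not matched to a symbol, and 1 other marker is not reported here. The genes, lists and tests were chosen with earlier results of these data known. Alternatives covered the pseudocount, the filter on low values, the scaling, the prior variance, the replicate block and leaving out each library.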

Additional observations from a re-analysis of the deposited data

How the results depend on the processing

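With 2 libraries a group, limma called 62 of 12299 genes, and this count moved with the processing. It was 115 with a pseudocount of 1 FPKM, 1 without a filter on low values, 409 with equal sums (TPM), 2441 on the hepatocyte marker scale, 40 without a trend in the prior variance, and between 4 (without 7KC replicate 2) and 441 (without control replicate 1) when a library was left out. The replicate block gave 0 genes. The labels give replicate numbers and state no pairing. The correlation of the replicate differences was -0.14, which cannot decide whether samples with the same number were paired, since each group gives only 1 difference. Crossing the numbers, an alternative chosen after seeing the data, gave 588 genes. The cause of these shifts was not tested.

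Of the 26 sterol genes, 0 were called under every alternative except the hepatocyte scale. That scale called 1 of them (Mvd, 1.06), and 2441 of all genes tested. The median log2 change of the 26 genes was 0.0244 with TPM and 0.29 on the hepatocyte scale. It was between -0.317 and -0.0874 when a library was left out. Genes without overlap and higher numbered 6 with TPM (46.5% of all genes), 12 on the hepatocyte scale (79.6%) and 3 to 7 with a library left out (33.7% to 37.3%). Those lower numbered 4 (7.86%), 1 (0.886%) and 12 to 20 (37.5% to 41.9%). Genes at least 1.2-fold higher in 7KC replicate 1 than in replicate 2 numbered 3 on the hepatocyte scale, and the reverse 5 with TPM and 6 on the hepatocyte scale. Control replicate 2 was the higher for 1 gene with TPM and for 1 with quantile normalization.

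Reversed log2 changes on the hepatocyte scale were those of Acat2 (0.0631), Cyp51 (0.41), Dhcr7 (0.37), Ebp (0.16), Fdft1 (0.26), Ggps1 (0.29), Hmgcs1 (0.33), Idi1 (0.41), Insig2 (0.17), Lss (0.0389), Mbtps1 (0.30), Mvk (0.11), Sc5d (0.0457), Scap (0.31), Sqle (0.32), Stard4 (0.0291) and Tmem97 (0.39). With TPM they were those of Cyp51 (0.18), Dhcr7 (0.10), Ggps1 (0.0543), Hmgcs1 (0.0558), Idi1 (0.15), Mbtps1 (0.0159), Scap (0.0329), Sqle (0.13) and Tmem97 (0.11). With quantile normalization they were those of Hsd17b7 (-0.0499) and Nsdhl (-0.0434). With a library left out the log2 change reversed for Cyp51 (-0.37 to 0.35), Dhcr7 (-0.284 to 0.0845), Hsd17b7 (-0.0294 to 0.143), Idi1 (-0.23 to 0.15), Nsdhl (-0.18 to 0.32) and Sqle (-0.48 to 0.41). Of the other genes with overlapping groups and small changes, Hmgcs1 ranged from -0.25 to -0.03, Ggps1 from -0.22 to -0.03 and Mbtps1 from -0.29 to -0.08. The other scaling, pseudocount, filter and prior variance alternatives and the replicate block reversed 0 of the 26 genes. Of these, the filter, the prior variance and the replicate block could not, since they leave the log2 change itself unchanged.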
